A study of Homo sapiens with 12 samples.

Results

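The sites described are the CTCF binding sites of wild-type HAP1 cells and of HAP1 cells without SCC4 (ΔSCC4), found by chromatin immunoprecipitation and sequencing (ChIP-seq). The members were the 43050 peaks of the wild-type CTCF list and the 37625 peaks of the ΔSCC4 CTCF list, together 80675 of the 267921 peaks in the 12 lists of the series. A wild-type peak was counted as kept when a ΔSCC4 interval overlapped it by at least 1 bp and as lost when none did. A ΔSCC4 peak with no overlapping wild-type interval was counted as new. HAP1 is a near-haploid human line that was derived from a chronic myeloid leukaemia. The wild-type cells were the parental line, and the ΔSCC4 cells were 1 clone in which a puromycin cassette had been placed by CRISPR/Cas9 in MAU2, the gene of SCC4. Lists from cells without WAPL (ΔWAPL) and from ΔWAPL cells in which SCC4 was deleted as well (ΔWAPL/ΔSCC4), from SMC1 precipitations and from IgG controls are used below only to describe these sites. Each genotype and antibody was represented by 1 library, so no test between genotypes was possible, and every value describes these libraries. The intervals printed are 95% Wilson intervals for shares and 95% intervals on the log scale for ratios. They cover counting error only, and nothing here measures how much 2 libraries of the same cells would differ.

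CTCF is a zinc-finger protein that binds a long, directional DNA motif and marks the borders and anchors of chromatin loops. Cohesin is a ring complex, with SMC1 as one of its core subunits, that extrudes loops and halts at CTCF sites, mostly where the motif points into the loop. SCC4 and its partner SCC2 (NIPBL) load cohesin onto DNA, and WAPL releases it again. CTCF itself needs neither protein to recognise its motif. The comparison asks which CTCF sites were called in both lists when the loader was impaired, and how the sites that were called in 1 list differed from the rest.

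The motif learned from the strongest wild-type peaks read tgGCCACcAGGGGGCGCtg on its G-rich strand, with capitals where 1 base made up most of the matches. The best matches at strong lost, new and kept sites are shown first, and only sites that held a match are listed. Each line gives the gene or neighbouring gene, the hg19 position and strand, and 29 bases from 5′ to 3′, with the 19 bases of the match in capitals. Lost sites of high −log10 q with a match were:
ZDHHC1 intron, chr16:67433495-67433523, minus strand: ccgcaGCGCCTGCAGAGGGCGCGCgcgct
start of ENSG00000286727, chr18:75362921-75362949, minus strand: ccgggAGGCCAGCAGGGGGCAGTGctggc
ENSG00000250195 intron, chr4:139840449-139840477, minus strand: cattcTGGACGGCAGAGGGCACTCgtgtc
NFATC4 intron, chr14:24835031-24835059, plus strand: ctttcTGGTCGCCAGGGGGCAGAAgtgta
LDLRAD3 intron, chr11:36153459-36153487, minus strand: tcccaCAGACGCTAGATGGCACTAgaaca
intergenic, 59306 bp from the KCNJ15 start, chr21:39728118-39728146, minus strand: cccacGGCCCACGAGGTGGCGCTAgagcc
PTPRN2 intron, chr7:157668334-157668362, minus strand: tgctgCAGCCACCAGGGGTCACACttgct

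New sites of high −log10 q with a match were:
ENSG00000260664 intron, chr16:72564616-72564644, plus strand: agtacTTTCCGGTAGGGGGCAATGttggg
RASGEF1C intron, chr5:179544295-179544323, plus strand: aagaaGGCCCGGCAGGTGGCACAAgcgtg
ADAMTSL1 intron, chr9:18246025-18246053, minus strand: cacagCAGCCGGTAGAGGGACATAggatg
intergenic, nearest start that of MYF6, chr12:81104384-81104412, minus strand: gctctGTACCTCCAGGGGGCACTGtctgt
intergenic, 196905 bp from the RAP2A start, chr13:98283637-98283665, minus strand: cctgcCTTCCGCTAGGGGACGCAGcctac
intergenic, 677162 bp from the NDST4 start, chr4:116712166-116712194, minus strand: aatagTAGCCGAAAGGGGGCAGGAgtggc

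The strongest kept sites were:
intergenic, 13126 bp from the MTFR2 start, chr6:136547536-136547564, minus strand: catatTTACCACGAGAGGACAGTAtaaca
upstream of RAPGEF1, chr9:134615535-134615563, minus strand: gctccGGGCCCACAGGGGGCGCTGtggcg
LINGO1 intron, chr15:77926000-77926028, plus strand: cccagTGGCCAGCAGAGGGCAGCGcagag
intergenic, 159911 bp from the SMAD3 start, chr15:67196197-67196225, minus strand: aatagCAGCCACCAGGTGGCAAGTtttgg
intergenic, 2751 bp from the PIK3CD start, chr1:9687170-9687198, plus strand: ccgggCGGGCAGCAGGGGGAGCCGctgag

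Of the 43050 wild-type CTCF peaks, 7164 were lost in ΔSCC4 cells, which is 16.6% (interval 16.3 to 17.0), and 35886 were kept. New sites were 1737 of 37625 ΔSCC4 peaks, or 4.62% (4.41 to 4.83). Both shares depend on where the lists end. Of peaks with −log10 q, the caller's adjusted p-value, of at least 10, 4.50% of the wild-type peaks had no ΔSCC4 peak of any strength, and 0.475% of the ΔSCC4 peaks had no wild-type peak. With both lists held to the length of the shorter, which makes the shares nearly equal by construction, 9.01% were lost and 8.97% were new. The lowest local background worked back from the peak values was 6.53 reads per kb in the wild-type and 7.42 in the ΔSCC4 list. Whether these are reads of the library itself or of its control was not tested. Of the same wild-type peaks, 8.36% had no overlapping peak in ΔWAPL and 6.75% had none in ΔWAPL/ΔSCC4 cells. All of these comparisons share the wild-type library, so its own missed or surplus peaks enter each of them.

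Lost sites were weak CTCF sites. Fold enrichment, the peak caller's ratio of the reads at the summit to the local background, had a median of 5.68 at lost and 13.9 at kept sites in the wild-type list. New sites had a median fold of 5.25 in the ΔSCC4 list, against 12.1 for the kept peaks of that list. A median lost site held 12 reads at its summit and a median kept site 46. The 75th percentile of fold was 6.72 for lost and 5.84 for new sites, while the 25th percentile of kept sites was 9.38. The classes overlapped, as lost sites reached a fold of 19.7 and new sites 15.9. Peaks were also narrower at lost sites, with a median width of 208 bp against 348 bp.

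**Figure D1:**
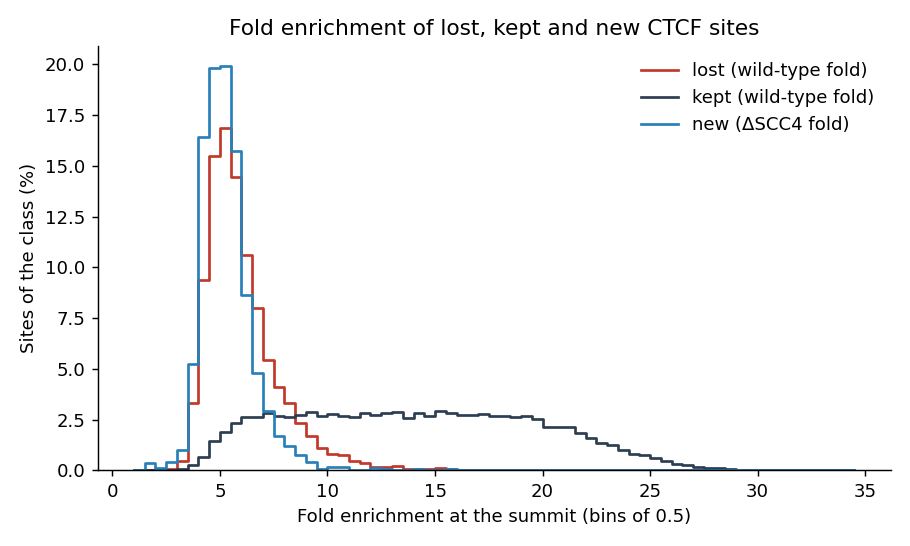
Histogram of fold enrichment at the summit (x axis, bins of 0.5) as the percentage of sites in each class (y axis), for lost and kept sites in the wild-type list and new sites in the ΔSCC4 list. Lost and new sites pile up around their medians of 5.68 and 5.25, while kept sites spread widely around 13.9.

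The share of sites lost fell steeply with the strength of the wild-type peak. The wild-type peaks were divided by −log10 q into 10 classes of 4305 peaks, from class 1, the weakest, to class 10. In class 1, 71.5% (70.1 to 72.8) were lost, in class 2 52.1%, in class 3 28.3%, in class 4 10.4% and in class 5 3.02%. Classes 1 to 4 together held 6985 of the 7164 lost sites, or 97.5%. None of the 4305 sites in class 10 was lost, which allows a share of up to 0.0892%. The other mutants had the same order of classes at lower values. In class 1, 46.8% of sites had no peak in ΔWAPL and 39.6% had none in ΔWAPL/ΔSCC4 cells, and in class 4 the values were 1.93% and 1.42%. New sites followed the same pattern in the ΔSCC4 list, where 29.5% of the weakest class and 0.585% of the fourth were new.

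**Figure D2:**
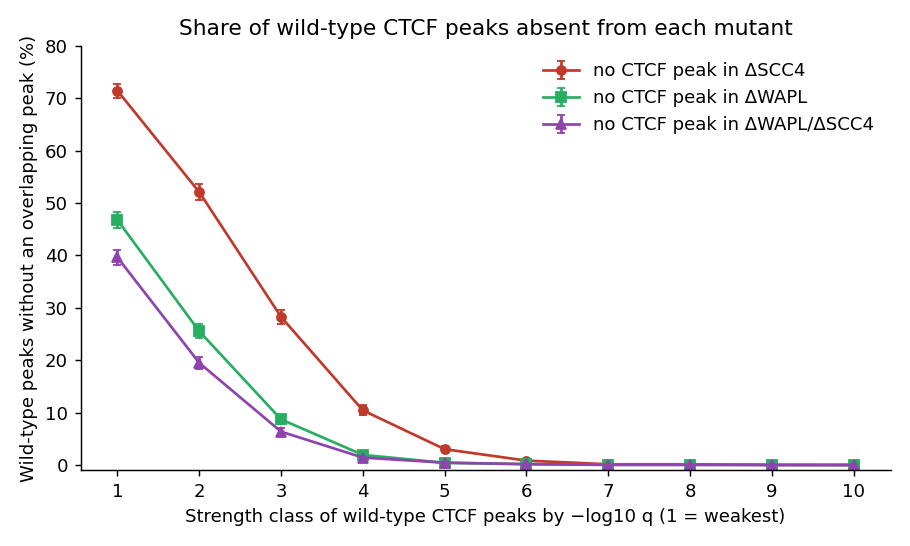
Percentage of wild-type CTCF peaks with no overlapping CTCF peak in ΔSCC4, ΔWAPL or ΔWAPL/ΔSCC4 cells (y axis) by strength class of the wild-type peak (x axis, 4305 peaks a class), with 95% Wilson intervals. All 3 lines fall to near 0 by class 6, and the ΔSCC4 line starts highest, at 71.5%.

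A small set of strong sites was lost all the same. Among the 21525 wild-type peaks of classes 6 to 10, 49 were lost, or 0.228%, and 5 of these were in TTK, which is treated separately below. Each of the other 44 had a CTCF peak in both ΔWAPL and ΔWAPL/ΔSCC4 cells, as had nearly every kept site of these classes (99.97% in each list). Their wild-type fold ran from 9.52 to 19.7 with a median of 14.9. Their median fold reached 14.3 in ΔWAPL cells and 12.3 in ΔWAPL/ΔSCC4 cells, with the lowest at 5.48 and 5.08. A motif was found at 41 of the 44, or 93.2% (81.8 to 97.7), and at 94.4% of the kept sites in the same classes, here over all chromosomes, including those used to learn the motif. Wild-type SMC1 was present at 13 of the 44, 29.5% (18.2 to 44.2), compared with 69.8% of the kept sites. In ΔSCC4 cells 1 of the 44 had an SMC1 peak, against 50.6% of the kept sites. Start sites were within 1 kb of 5 of them, 11.4% (4.95 to 24.0), and of 20.2% of the kept sites. The kept shares were pooled over classes 6 to 10 and not matched for strength. Of the 49 lost sites, TTK included, 36 were in class 6, where SMC1 was less common at kept sites. In class 6, 922 kept sites had SMC1 in both wild-type and ΔSCC4 cells, 1018 in wild-type alone and 2113 in neither.

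The strongest lost site outside TTK was in an intron of ZDHHC1, a palmitoyltransferase gene (chr16:67433329-67433779). Its CTCF fold was 18.0 in wild-type, 18.6 in ΔWAPL cells and 15.7 in ΔWAPL/ΔSCC4 cells, with no peak in ΔSCC4 cells. SMC1 was called there with a fold of 4.94 in wild-type, 9.0 in ΔWAPL cells and 8.26 in ΔWAPL/ΔSCC4 cells and was not called in ΔSCC4 cells. Both proteins were thus called in 3 genotypes and neither in ΔSCC4 cells. The nearest ΔSCC4 CTCF summit was 6122 bp away.

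The next lost site was 21 bp from the start of ENSG00000286727, a gene without a symbol (chr18:75362743-75363113). Its CTCF fold was 19.7 in wild-type, 21.3 in ΔWAPL cells and 23.7 in ΔWAPL/ΔSCC4 cells. SMC1 was called only in ΔWAPL cells (fold 13.9) and ΔWAPL/ΔSCC4 cells (8.47). No ΔSCC4 CTCF summit lay within 98401 bp, and the nearest protein-coding start, that of GALR1, was 397254 bp away.

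In an intron of ENSG00000250195 (chr4:139840263-139840656) the CTCF fold was 17.2 in wild-type, 16.8 in ΔWAPL cells and 17.1 in ΔWAPL/ΔSCC4 cells. An intronic site 153 bp from a start of NFATC4, a transcription factor of the NFAT family (chr14:24834788-24835216), had folds of 18.0, 16.8 and 18.0 in the same order. At both sites the values of the 3 lists lay close together, and ΔSCC4 cells had no peak. Both had wild-type SMC1 peaks, with folds of 5.30 and 5.94.

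An intronic site of LDLRAD3, a gene of the LDL receptor family (chr11:36153301-36153660), had CTCF folds of 17.2, 16 and 16 in wild-type, ΔWAPL and ΔWAPL/ΔSCC4 cells. SMC1 was not called there in wild-type cells and had folds of 10.0 and 9.92 in ΔWAPL and ΔWAPL/ΔSCC4 cells. An intergenic site 59306 bp from the start of the potassium channel gene KCNJ15 (chr21:39727914-39728307) had CTCF folds of 15.7, 14.6 and 18.3. An intronic site of PTPRN2, a phosphatase-like protein of secretory vesicles (chr7:157668180-157668517), had 16.8, 16.3 and 16.1. Wild-type SMC1 was called at both, with folds of 6.06 and 4.54. PTPRN2 was the most isolated of the named lost sites, with the nearest other wild-type CTCF summit at 179601 bp and the nearest ΔSCC4 summit at 400850 bp.

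New sites were weak as well, and 6 of the 10 strongest were also called in another mutant. The strongest lay in an intron 36 bp from a start of MOV10L1, an RNA helicase of the germline piRNA pathway (chr22:50585230-50585516). Its fold was 15.9 in ΔSCC4 cells, and no CTCF peak was called there in the other 3 genotypes. No motif was found, and an SMC1 peak was called there in ΔSCC4 cells alone (fold 4.68).

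Of the 10 named new sites, 4 had no CTCF peak in any other genotype. Beside MOV10L1 these were an intron of ENSG00000260664 (chr16:72564428-72564781, fold 14.2), an intergenic site on the X chromosome (chrX:98242179-98242583, 12.2) and an intergenic site 677162 bp from the start of NDST4 (chr4:116712046-116712340, 10.8). The site in RASGEF1C, which encodes a Ras exchange factor (chr5:179544156-179544459), had a fold of 12.5 in ΔSCC4, 16.1 in ΔWAPL cells and 16.4 in ΔWAPL/ΔSCC4 cells, so wild-type was the list without it. The ADAMTSL1 intron (chr9:18245944-18246195) likewise had 10.6, 13.7 and 14.8. Other new sites of the 10 lay 106496 bp from the SDK1 start (chr7:3234243-3234576, fold 12.8 in ΔSCC4, 11 in ΔWAPL cells and 10.3 in ΔWAPL/ΔSCC4 cells), between genes with the muscle regulator MYF6 as the nearest start (chr12:81104194-81104521, 10.5, 4.56 and 9.80) and 196905 bp from the RAP2A start (chr13:98283474-98283802, 10.4, 11.4 and 7.42). Wild-type SMC1 was called at none of the 10.

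Most lost sites were found in at least 1 of the other mutants. A CTCF peak was present at 61.7% (60.6 to 62.9) of lost sites in ΔWAPL cells and at 67.9% (66.8 to 68.9) in ΔWAPL/ΔSCC4 cells. Both lists held 3744 of the lost sites, or 52.3%, and neither held 1624, or 22.7%. Of the kept sites, 96.6% were in both lists. Among kept sites weighted to the wild-type strength of the lost sites, in 20 classes of −log10 q, ΔWAPL cells had a peak at 82.7% and ΔWAPL/ΔSCC4 cells at 87.2%. Of the new sites, 35.6% (33.4 to 37.9) were in both lists and 31.7% (29.5 to 33.9) in neither.

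Lost sites rarely carried cohesin in wild-type cells. A wild-type SMC1 peak overlapped 308 of 7164 lost sites, 4.30% (3.85 to 4.79), and 17204 of 35886 kept sites, 47.9% (47.4 to 48.5). The ratio of the shares was 0.0897 (0.0804 to 0.100). Much of this gap went with strength, because among kept sites weighted to the strength of lost sites 7.33% had wild-type SMC1, which gives a ratio of 0.587. The gap was seen within the weak classes. In class 1, 51.2% (42.5 to 59.9) of the 123 sites with SMC1 were lost and 72.0% (70.7 to 73.4) of those without. In class 2 the values were 39.8% (33.7 to 46.3) and 52.8% (51.3 to 54.3), and in class 3 19.2% (15.4 to 23.7) and 29.1% (27.7 to 30.5). In class 4 the intervals overlapped, at 8.81% (6.86 to 11.2) and 10.7% (9.75 to 11.8).

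New sites resembled lost sites in this respect, with wild-type SMC1 at 69 of 1737, or 3.97% (3.15 to 5.00). In ΔSCC4 cells SMC1 was called at 1.44% of lost, 33.8% of kept and 2.82% of new sites, and at 4.58% of kept sites weighted to the strength of lost sites. Of the 308 lost sites with wild-type SMC1, 57 had SMC1 in ΔSCC4 cells, 18.5% (14.6 to 23.2), compared with 63.3% (62.5 to 64.0) of the kept sites with wild-type SMC1. These shares were not matched for CTCF strength. In ΔWAPL cells, where more SMC1 peaks were called, SMC1 was present at 23.7% (22.8 to 24.7) of the lost and 70.0% of the kept sites. Kept sites weighted to the strength of lost sites had ΔWAPL SMC1 at 26.7%.

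**Figure D3:**
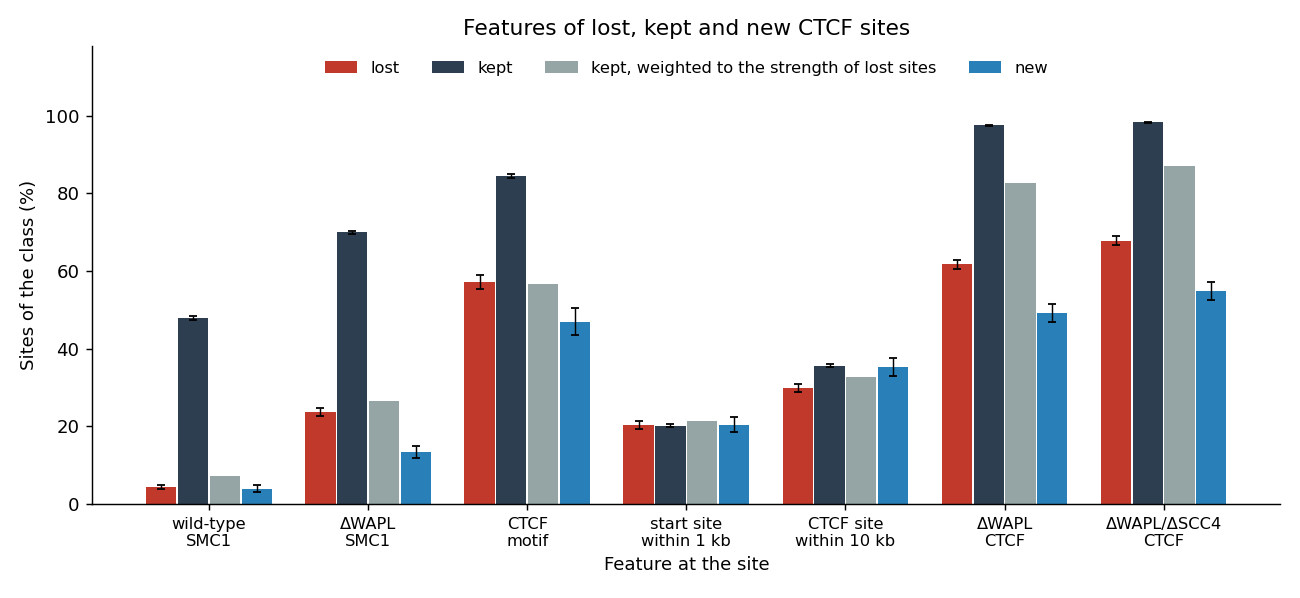
Percentage of lost, kept and new CTCF sites (y axis) with each feature (x axis), with 95% Wilson intervals; the grey bars are kept sites weighted to the wild-type strength of lost sites and have no interval. Wild-type SMC1 was called at 4.30% of lost and 47.9% of kept sites, while the share near a start site is close to 20% in every class.

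The CTCF motif was found less often at lost than at kept sites. On even-numbered chromosomes, which were not used to learn the motif, 57.2% (55.5 to 58.9) of lost, 84.6% (84.0 to 85.1) of kept and 47.0% (43.6 to 50.5) of new sites held a match within 50 bp of the summit. Windows of the same length 1000 bp downstream held one at 4.78%, 5.05% and 5.49%. The ratio of lost to kept was 0.677 (0.656 to 0.698), but kept sites weighted to the strength of lost sites held a motif at 56.8%, which gives a ratio of 1.01. In class 2, 50.8% (47.9 to 53.7) of sites with a motif and 48.3% (44.9 to 51.8) of sites without one were lost. In none of the 4 weakest classes did the 2 intervals separate. Where a motif was present, its median score was 12 at lost, 14.8 at kept and 11.2 at new sites, and its centre lay a median of 16, 14 and 17 bp from the summit.

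Within the motif, a CG at positions 15 and 16, counted from the 5′ end of the G-rich strand, was found at 20.5% (18.7 to 22.4) of lost and 28.7% (28 to 29.5) of kept motifs. Kept motifs weighted to the strength of lost sites held it at 21.9%. A CG at positions 5 and 6 was found at 10.3% (9.01 to 11.8) and 9.93% (9.44 to 10.4). DNA methylation was not analysed here.

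Motif orientation was compared between neighbouring sites. Of consecutive wild-type motif pairs with both sites kept, 24.3% (23.8 to 24.9) pointed toward each other (convergent), 50.5% pointed the same way and 25.2% (24.6 to 25.7) pointed apart. Of pairs with 1 site lost, 25.6% (24.6 to 26.6) were convergent and 22.8% (21.9 to 23.8) pointed apart. The share pointing apart was thus lower with 1 site lost, by intervals that did not overlap. The pairs were not matched for strength, and consecutive pairs share a site, so they were not independent. Of the 638 pairs with both lost, 26.5% (23.2 to 30.05) were convergent and 23.2% (20.1 to 26.6) pointed apart.

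Gene parts differed little between the classes. Introns held 54.1% (53.0 to 55.3) of lost, 52% (51.4 to 52.5) of kept and 50.7% of new sites. Intergenic sequence held 32.0% (31.0 to 33.1) of lost, 36.2% (35.7 to 36.7) of kept and 37.1% of new sites. Coding exons held 4.17% (3.73 to 4.66) of lost sites and 2.69% (2.53 to 2.86) of kept sites, and 3.97% of lost sites when TTK was left out. Kept sites weighted to the strength of lost sites lay in coding exons at 3.70%, in introns at 53.5% and between genes at 33.4%. Untranslated and non-coding exons of protein-coding genes held 6.28% of lost and 5.99% of kept sites.

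Lost sites were as often near a gene start as kept sites. A transcript start lay within 1 kb of 20.4% (19.4 to 21.3) of lost, 20.2% (19.8 to 20.6) of kept and 20.4% of new sites, a ratio of lost to kept of 1.01 (0.960 to 1.06). Far from genes the lost share was higher, 23.9% (21.6 to 26.4) of the 1224 sites over 100 kb from any start. The strength of those sites alone, taken as the mean lost share of their strength classes, gave 22.2%. The GC fraction of the sequence around the summit had a median of 0.455 at both lost and kept sites, and the CpG content as observed over expected was 0.217 and 0.255.

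Lost sites stood somewhat further from other CTCF sites. The nearest other wild-type CTCF summit lay at a median of 19724 bp from lost and 16186 bp from kept sites, and it lay within 10 kb of 29.8% (28.8 to 30.9) of lost and 35.7% (35.2 to 36.2) of kept sites. The ratio of these shares was 0.836 (0.805 to 0.869), and it was 0.914 against kept sites weighted to the same strength. The lost share rose from 13.8% (13 to 14.5) of sites with a neighbour within 5 kb to 19.2% (18.1 to 20.2) at 50 to 100 kb and 25.5% (23.8 to 27.2) beyond 100 kb. Strength alone gave 14.4%, 19% and 21.3% for these 3 groups, so the observed share was above that of equally strong sites beyond 100 kb, by a factor of 1.20.

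The lost share was also read by what became of the nearest neighbour. Where 2 sites were each other's nearest neighbour, both were counted. The sites were thus not independent, and the intervals take no account of this. Beyond 100 kb, 29.8% (26.2 to 33.7) of sites whose nearest wild-type neighbour was lost were lost themselves, where their strength gave 21.6%. The share was 24.2% (22.4 to 26.2) where the neighbour was kept, and strength gave 21.2%, and the 2 intervals met at 26.2%. Between 10 and 100 kb the shares were 20.8% (19.6 to 22.1) with a lost neighbour and 16.4% (15.9 to 16.9) with a kept neighbour, and strength gave 18.9% and 16.9%. Within 10 kb the lost-neighbour share was 17.1% (15.5 to 18.7), where strength gave 18.4%, and 16.7% without TTK. The share with a kept neighbour within 10 kb was 13.9% (13.3 to 14.5), where strength gave 14.3%.

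On chromosomes 1 to 22 and X, lost sites formed 5759 uninterrupted runs along the wild-type list, of which 4683 were single sites. There were 835 runs of 2, 191 of 3 and 50 of 4 or more. The 50 longer runs held 227 sites, or 3.17% of the lost sites. A kept site ends a run by definition, so a ΔSCC4 CTCF summit between its ends could only be that of a new site. Such a summit was absent from 45 of the 50 runs, which follows largely from the definition. The runs named here were chosen after their values were seen and do not stand for all 50. The longest run in distance, 1762 kb on the X chromosome (126172284 to 127934272), held 6 sites with folds from 4.80 to 12.5. All 6 had peaks in both other mutants. On chromosome 5, 4 sites across 1191 kb at LINC01019 (3509601 to 4700498) had folds from 9.0 to 14.9, and all 4 were present in both other mutants. In PTPRT and beside it on chromosome 20, a run of 4 sites across 512 kb had folds from 5.75 to 13.3 and again had peaks in both. Other runs were less often called in these mutants. Of 4 sites at PARVB on chromosome 22, 1 had a peak in ΔWAPL and 2 had one in ΔWAPL/ΔSCC4 cells. Of 4 sites at NAPRT, EEF1D and TIGD5 on chromosome 8, 1 had a peak in ΔWAPL and 0 had one in ΔWAPL/ΔSCC4 cells.

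The lost share varied between chromosomes within a narrow range. It ran from 14.1% on chromosome 11 (12.7 to 15.6) and chromosome 19 (12.5 to 15.9) to 21.6% (18.0 to 25.8) on chromosome 21. The interval lay above the overall 16.6% on 5 chromosomes (9, 13, 18, 21 and X) and below it on 4 (11, 15, 17 and 19). The strength of the sites on each chromosome gave shares between 14.2% on chromosome 17 and 19.6% on chromosome 13. The X chromosome was the 1 of 23 chromosomes whose interval excluded the share given by strength. There 364 of 1787 sites were lost, 20.4% (18.6 to 22.3), against 17.4%. The gap was wider on chromosome 21, at 21.6% against 18.1%, but its interval included the share given by strength. No allowance was made for comparing 23 intervals. New sites made up 4.11% (3.21 to 5.24) of the ΔSCC4 peaks on X and from 3.61% on chromosome 17 to 6.48% on chromosome 13 elsewhere.

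**Figure D4:**
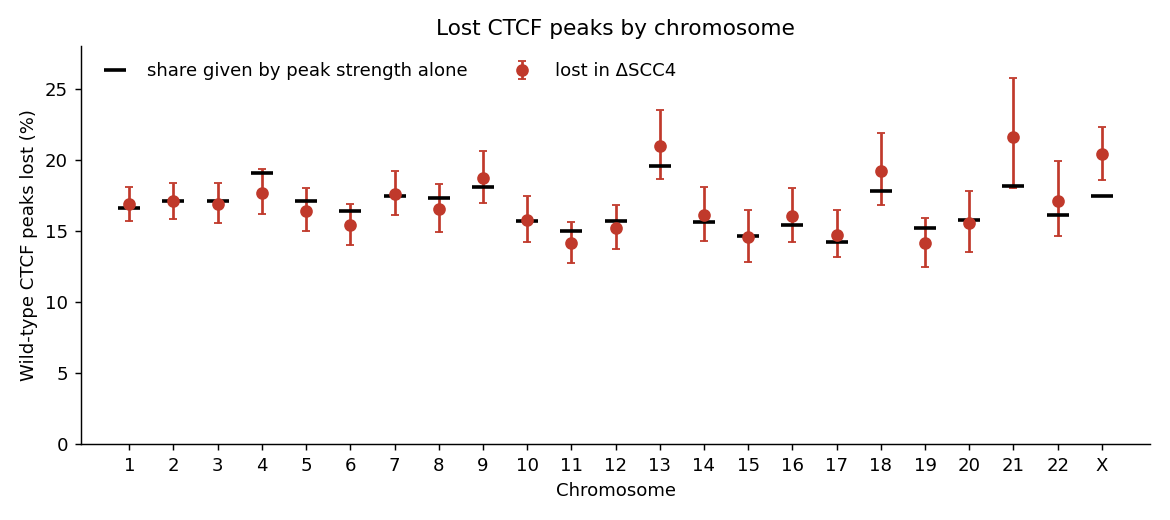
Percentage of wild-type CTCF peaks lost in ΔSCC4 (y axis) on each chromosome (x axis), with 95% Wilson intervals (points), and the percentage that the strength of its peaks alone gives (bars). Observed and strength-given shares lie close together. The gap is widest on chromosome 21, at 21.6% against 18.1%, where the interval includes the strength-given share. On chromosome X, at 20.4% against 17.4%, the interval excludes that share.

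Lost sites were also counted at genes of the cohesin machinery. Within 5 kb of 15 genes of cohesin, its regulators and CTCF lay 35 wild-type CTCF sites. Of these 2 were lost, 5.71% (1.58 to 18.6). Their strength gave 9.87%, and the share over all wild-type sites was 16.6%, both within that interval. The lost sites were introns of PDS5A, a regulator of cohesin release (wild-type fold 5.79), and of NIPBL, the loader subunit SCC2 (6.68). The 3 new sites were near WAPL (ΔSCC4 fold 4.88), in NIPBL (4.43) and in SMC1A (5.32). At the 39 HOX genes, which pattern the body axis, none of 22 wild-type sites was lost, which allows up to 14.9%, and strength gave 6.49%. A new site lay 214 bp from the start of HOXB13 (ΔSCC4 fold 5.0).

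The clustered protocadherins are neuronal adhesion genes, and many of their alternative promoters carry a CTCF site. Of 45 wild-type sites at these genes 10 were lost, 22.2% (12.5 to 36.3), close to the 18.7% that strength gave. The strongest, 94 bp from the start of PCDHA11, had folds of 14.5 in wild-type, 14.2 in ΔWAPL cells and 14.5 in ΔWAPL/ΔSCC4 cells and no peak in ΔSCC4 cells. Others lay within 100 bp of the starts of PCDHA12, PCDHB2, PCDHB4, PCDHB14, PCDHGA3, PCDHGA6, PCDHGB4 and PCDHGA9, with wild-type folds from 4.32 at PCDHA12 to 10.5 at PCDHGA6, and 1 lay in a coding exon of PCDHA12 (7.40). The site at PCDHB2, with a fold of 6.89 in wild-type, had 11.2 in ΔWAPL cells and 18.1 in ΔWAPL/ΔSCC4 cells.

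At 15 imprinted genes, which are expressed from 1 parental allele and often carry methylation-sensitive CTCF sites, 7 of 34 sites were lost, 20.6% (10.4 to 36.8), where strength gave 14.6%. They included a site in H19, whose control region binds CTCF (chr11:2024110-2024419), with folds of 6.90 in wild-type, 6.48 in ΔWAPL cells and 6.10 in ΔWAPL/ΔSCC4 cells. A site 10 bp from a start of MEST had 9.06 in wild-type and 6.91 in ΔWAPL cells. The other lost sites were in KCNQ1, SNRPN and GNAS and at 2 places in GRB10, with wild-type folds between 3.84 and 6.69, and the 2 new sites were in INS-IGF2 (ΔSCC4 fold 4.12) and in KCNQ1 (4.50). In NCAM2, a neural adhesion gene, 1 of 5 sites was lost, an intronic site with folds of 10.9 in wild-type, 17.9 in ΔWAPL cells and 12.6 in ΔWAPL/ΔSCC4 cells.

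The gene with the most lost sites was TTK, a kinase of the spindle checkpoint, and its sites stood apart from the rest. All 19 wild-type CTCF peaks in TTK lay in coding exons, 1 of them held a motif, and 15 were lost where their strength gave 0.90. The local background at these peaks had a median of 10.6 reads, against a floor of 1.08 in this library. ΔSCC4 cells had 4 peaks in TTK with a median background of 1.73, ΔWAPL/ΔSCC4 cells had 5 with 2.34, ΔWAPL cells had none, and no SMC1 list had any. The lost peak with the highest −log10 q, in a TTK exon (chr6:80717438-80717812), had a wild-type fold of 9.73 and a ΔWAPL/ΔSCC4 fold of 5.99. What raised the wild-type background across these exons was not tested, and the lost share of all other wild-type sites was 16.6%.

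The next genes in order of lost sites were long genes. ZFHX3, a homeobox transcription factor gene of 1109 kb, had 22 wild-type sites, of which 11 were lost, all in introns, where strength gave 7.88. KAZN, which encodes a desmosome-associated protein, lost 9 of 26 where strength gave 6.81. AGBL1, a deglutamylase gene, lost 8 of 14 (strength 4.10), and TBC1D5, a regulator of Rab7 traffic, lost 8 of 16 (strength 4.08). Most new sites, 5, were in SDK1, an adhesion gene of 968 kb with 4 wild-type sites. BBX, DLG2, EYS and WDR25 had 3 new sites each.

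CTCF fold was somewhat lower at kept sites in ΔSCC4 than in wild-type cells. The ratio of the ΔSCC4 to the wild-type fold had a median of 0.893 (quartiles 0.786 to 1.00) over 35886 kept sites, and it was below 1 at 74.9% of them. The ratio to wild-type reached 0.948 in ΔWAPL cells and 0.942 in ΔWAPL/ΔSCC4 cells at the kept sites with a peak there. With summit reads divided by the lowest background of each list in place of fold, the median ratios were 0.802 in ΔSCC4, 0.815 in ΔWAPL and 0.912 in ΔWAPL/ΔSCC4 cells. Since fold depends on the success of each precipitation, and each genotype had 1, a general shift of this size cannot be told apart from a difference between libraries.

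Within the shift, kept sites that held SMC1 in both lists had the highest median ratio of fold. In classes 6 to 10, the median ratio was 0.910 (quartiles 0.836 to 0.987) at 10036 sites with SMC1 in both wild-type and ΔSCC4 cells. It was 0.873 (0.782 to 0.963) at 4952 sites with SMC1 in wild-type alone and 0.860 (0.756 to 0.958) at 5657 sites without SMC1 in either. The quartile ranges overlapped widely. The order held within class 6, at 0.921, 0.861 and 0.840, where the wild-type folds of the 3 groups were alike (medians 13.7, 13.7 and 13.8). In class 9 the last 2 groups changed places, at 0.911, 0.870 and 0.876, and in class 10 the medians were closer, at 0.905, 0.880 and 0.874. The 831 sites with SMC1 in ΔSCC4 cells alone had 0.906 over classes 6 to 10. With summit reads over the lowest background in place of fold, the ΔSCC4 ratio of these 831 sites was 0.825. The first 3 groups then had 0.818, 0.769 and 0.766 in ΔSCC4 and 0.763, 0.778 and 0.791 in ΔWAPL cells. By fold, the ΔWAPL ratios of the first 3 groups were 0.976, 0.963 and 0.95 in class 6. They were 0.921, 0.914 and 0.908 in class 8 and 0.902, 0.909 and 0.893 in class 10. Over classes 6 to 10, where the groups were not matched for strength, they were 0.914, 0.924 and 0.925. The ΔWAPL/ΔSCC4 ratios of these groups had the same order as in ΔSCC4 cells. They were 0.988, 0.956 and 0.924 in class 6 and 0.917, 0.907 and 0.898 over classes 6 to 10.

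**Figure D5:**
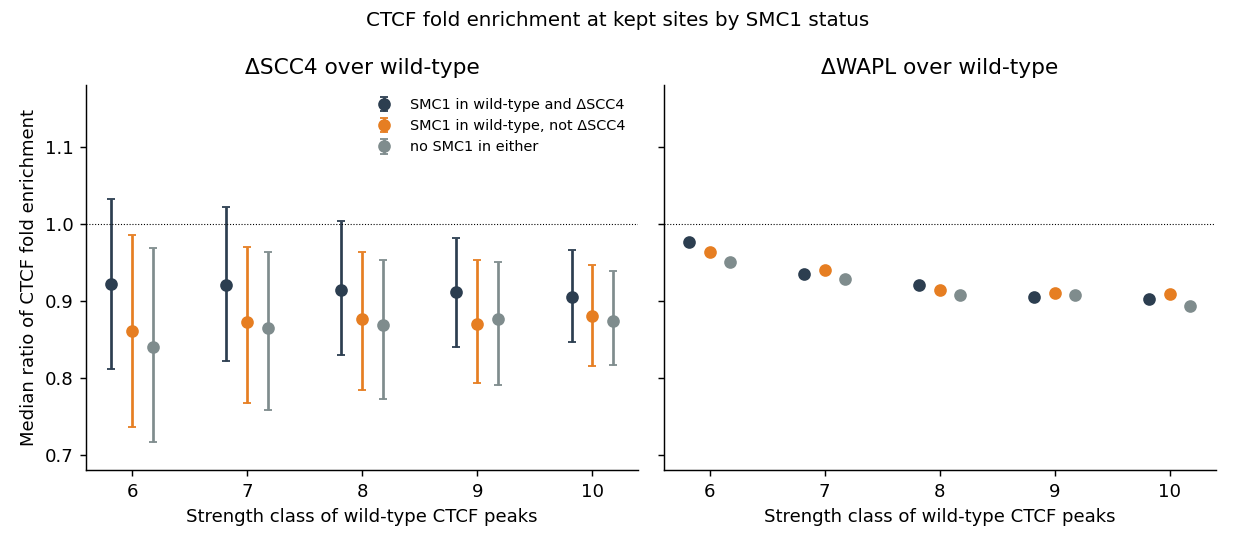
Median ratio of CTCF fold enrichment in ΔSCC4 (left) or ΔWAPL (right) to wild-type (y axis) at kept sites of strength classes 6 to 10 (x axis), by whether SMC1 was called in wild-type and ΔSCC4 cells; bars on the left are quartiles. On the left, sites with SMC1 in both lists lie highest in each class, for example 0.921 against 0.861 and 0.840 in class 6.

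The strongest kept sites differed little between genotypes. The site 13126 bp from the MTFR2 start (chr6:136547312-136547849) had CTCF folds of 29.9 in wild-type, 28.6 in ΔSCC4, 28.9 in ΔWAPL cells and 28.1 in ΔWAPL/ΔSCC4 cells. SMC1 was called there in all 4, with folds of 11.2, 10.1, 16.1 and 15.4. The other strongest kept sites, named above by RAPGEF1, LINGO1, SMAD3 and PIK3CD, had ratios of ΔSCC4 to wild-type CTCF fold of 0.955, 0.995, 0.907 and 0.963. Among class 10 sites, the lowest ratio was 0.560, in an intron 348 bp from a start of METTL22, a methyltransferase gene, where no motif was found and the folds were 22.4 in wild-type, 12.6 in ΔSCC4, 11.5 in ΔWAPL cells and 15.3 in ΔWAPL/ΔSCC4 cells. At CORO2B, SYT9, LINC01450 and LCP1 the ratios were 0.568, 0.572, 0.588 and 0.595, and the ΔWAPL folds there lay between 17.4 at CORO2B and 21.1 at SYT9, nearer to wild-type than the ΔSCC4 folds of 12.3 to 14.3. The highest ratios were at BCL2L1, a regulator of apoptosis (1.24), ARHGAP22 (1.21), the actin regulator VASP (1.19), the non-coding gene DRAIC (1.19) and 2571 bp from the SGCA start (1.19). The lowest and highest ratios were chosen as extremes and are a description.

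Few calls sat at the edge of the overlap rule. The summits of kept pairs were a median of 16 bp apart, 13 kept peaks overlapped their partner by under 50 bp, and the smallest overlap was 4 bp. A ΔSCC4 interval lay within 100 bp of 20 lost peaks and within 500 bp of 149, and the smallest gap was 3 bp. At the weak end, 53.4% of lost sites had at most 12 reads at the wild-type summit, and the weakest called summits held 6 reads in wild-type and 7 in ΔSCC4 cells.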

How the data were processed

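ChIP-seq libraries of CTCF, SMC1 and IgG from 4 genotypes of HAP1 cells, 1 library each, were analysed as peak lists. The authors mapped single-end reads of 65 bp to hg19 with Bowtie2 and called peaks per library with MACS2 (version 2.1.1), with IgG named as the control. The calling threshold was not given in the sources used here. In the deposited lists, fold enrichment is the ratio of summit reads to local background after 1 read was added to each. The −log10 p and −log10 q in the deposited lists belong to the same summit. Summit reads and background were recovered from the fold and −log10 p, with 1 solution for 99.97% of wild-type and 100% of ΔSCC4 CTCF peaks. Above the lowest value of each list, these backgrounds were whole reads in 10 kb (100% within 0.1 reads), so they describe 10 kb around the peak. The lowest background over the fragment length gave the reads per kb.

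Groups came from the sample titles. Members, gene lists and comparisons were chosen with earlier results of these data known. No test was made. Strength classes were formed on wild-type −log10 q, and weighting to the strength of lost sites used 20 such classes. The share given by strength is the mean lost share of a site's class. A motif of 19 bp was learned from the 1000 strongest wild-type peaks of odd-numbered chromosomes and counted on even-numbered ones, within 50 bp of the summit, at the score passed by 5% of windows 1000 bp downstream. Gene parts and starts came from GENCODE version 44 on GRCh37, the same assembly as hg19, and sequences from that genome. No peak ended beyond its chromosome. Positions are 1-based. Named sites, on chromosomes 1 to 22 and X and at no IgG peak, were the 10 lost, 10 new and 5 kept sites of highest −log10 q, the 5 lowest and 5 highest fold ratios among class 10, the 5 genes with most lost and with most new sites, and fixed gene lists. Alternatives covered thresholds, overlap, depth, list length, IgG, chromosomes and TTK. Python 3.11.15, numpy 2.4.6, scipy 1.17.1, pandas 2.3.3 and pysam 0.24.0 were used. The recovery and the motif search were tested on simulated data. Some sites and genes that this rule names are not reported here.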

Additional observations from a re-analysis of the deposited data

Results flagged for a closer look

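The effect of SCC4 loss on the CTCF lists ran in opposite directions in wild-type and ΔWAPL cells for 3 of 5 measures compared, with 1 library a genotype, and the difference was not tested. The number of CTCF peaks was 43050 in wild-type and 37625 in ΔSCC4 cells, a ratio of 0.874, and 45798 in ΔWAPL and 47608 in ΔWAPL/ΔSCC4 cells, a ratio of 1.04, so that the second ratio was 1.19 times the first. The share of peaks with a CTCF motif went from 80.1% to 81.6% in wild-type and from 80.7% to 78.6% in ΔWAPL cells, a ratio of ratios of 0.957. The share of peaks at a wild-type SMC1 peak went from 40.7% to 45.9% and from 38.3% to 36.9%, a ratio of ratios of 0.852. The 3 measures were not independent of each other. Weak peaks less often held a motif or wild-type SMC1, so both shares can move with the number of peaks called.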

How the results depend on the processing

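Of 92 alternatives, 46 left the value within its counting interval, 45 moved it beyond and 1 turned a ratio across 1. With −log10 q of at least 5 in both lists, 15.4% were lost, and the SMC1 and motif ratios were 0.113 and 0.739. With at least 10 in both lists, 14% were lost and 3.62% new, and the SMC1, motif and start-site ratios were 0.203, 0.828 and 0.910. With at least 10 in the counted list against any peak in the other, 4.50% were lost and 0.475% new, and the SMC1, motif, start-site and neighbour ratios were 0.176, 0.839, 0.889 and 0.913. This setting and equal list length, which gave 9.01% lost, 8.97% new and ratios of 0.126, 0.786, 0.959 and 0.901, moved the lost share most, and equal lengths make the lost and new shares nearly equal by construction. With fold of at least 5, 16% were lost and 4.23% new, and the SMC1, motif and neighbour ratios were 0.117, 0.736 and 0.882. With pileups scaled to equal depth together with a minimum −log10 p of 8 in both lists, 2 changes at once, the values were 16.2% lost and 3.67% new, and the SMC1, motif and neighbour ratios were 0.128, 0.761 and 0.892. Depth was taken here as the lowest background in reads per kb. Allowing 500 bp between intervals gave 4.41% new and a neighbour ratio of 0.795. Weighting kept sites to the strength of lost sites gave SMC1, motif, start-site and neighbour ratios of 0.570, 0.992, 0.951 and 0.904 in 10 classes. In 20 classes, a setting chosen after seeing the data, they were 0.587, 1.01, 0.958 and 0.914, and the motif ratio was the 1 that crossed 1. SMC1 peaks with −log10 q of at least 5 gave 0.0573, and SMC1 of any genotype 0.374. The motif ratio was 0.542 at the score passed by 1% of windows and 0.724 with windows of 100 bp. The neighbour ratio was 0.799 within 5 kb and 0.889 within 20 kb. The cause of these moves was not tested. Removing IgG peaks, other chromosomes or TTK moved none of the 6 values beyond its interval. No paired analysis was possible because each genotype had 1 library, and for the same reason no library could be left out.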

Other observations

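Along the genome, the lost share was read at the scale of 5 Mb. In 559 windows with at least 30 wild-type CTCF sites, the median lost share was 16.7% (quartiles 13.2% to 20.0%). The highest was 42.5%, 17 of 40 sites between 105 and 110 Mb on chromosome 13, where strength gave 8.96 sites. Next came 40% between 75 and 80 Mb on chromosome 18, 14 of 35 sites where strength gave 9.14, a window that holds the strong lost site at ENSG00000286727. The lowest was 3.33%, 2 of 60 sites between 80 and 85 Mb on chromosome 8, where strength gave 9.20. These windows were chosen as extremes and are a description, and how much of the spread was counting error was not tested.

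Sites that lay in a control precipitation were uncommon in every class. An IgG peak of any genotype overlapped 0.475% (0.340 to 0.662) of lost, 1.02% (0.921 to 1.13) of kept and 2.88% (2.19 to 3.77) of new CTCF sites. Among kept sites weighted to the strength of lost sites the share was 2.40%.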
